A study of Mus musculus with 4 samples.

Results

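Steroid hormone receptors and genes that respond to glucocorticoids were examined in tissue dissected from around the femoral artery of mice, mainly perivascular adipose tissue (PVAT). The set was given as 9 gene names, *Esr1*, *Pgr*, *Greb1*, *Nr3c1*, *Nr3c2*, *Fkbp5*, *Tsc22d3*, *Hsd11b1* and *Zbtb16*. Rows of the deposited table were matched to these names by symbol, and 6 of the 9 had a row among the 12661 genes of the table. *Pgr*, *Greb1* and *Nr3c2* were not analysed here. All 4 libraries came from ovariectomized female C57BL/6 mice of wild type genotype, labelled as 11 weeks old, so that the ovaries, the main source of circulating estrogen and progesterone, had been removed in both groups. The injury group (2 libraries) had a wire passed into the femoral artery and the sham group (2 libraries) had a sham operation, and tissue was taken at 48 h in both. Each group has 2 libraries, labelled replicate 1 and replicate 2, and nothing in the labels says whether a number stands for a shared cage, day or batch, or whether a library holds 1 animal.

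Steroid receptors are transcription factors of the nuclear receptor superfamily. Without hormone the glucocorticoid receptor, encoded by *Nr3c1*, is held in the cytoplasm by heat shock proteins and co-chaperones. Bound to cortisol or, in mice, corticosterone, it enters the nucleus and binds palindromic response elements. Progesterone and mineralocorticoid receptors recognise the same kind of element, and the estrogen receptor, encoded by *Esr1*, recognises another. In adipose tissue glucocorticoids act on adipocyte differentiation, lipid storage and inflammation, and estrogen receptor alpha limits fat mass. *Hsd11b1* encodes the enzyme that regenerates active glucocorticoid from its inert 11-keto form inside cells. *Fkbp5*, *Tsc22d3* and *Zbtb16* are widely used as readouts of receptor activity because glucocorticoids induce them in many cell types.

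The deposited values are signed scores that run from -2.27 to 6.45, look like values on a log scale and have a median near 0 in each library. What a value of 0 stands for and the base of the scale are not stated, and the depth of each library is unknown. A difference is therefore given in deposited units and not as a fold change, and levels are not compared between genes. Precision rests on the spread between 2 libraries per group. For standard errors, intervals and p-values, limma combines the spread of a gene with that of all genes. In bulk tissue fewer cells of a type and less RNA per cell cannot be told apart. Of the marker lists, all 12 adipocyte genes and all 10 macrophage genes had rows, as did 3 of 14 epithelial, 1 of 7 lymphocyte and 5 of 12 skeletal muscle genes. Over all 12661 genes, 941 passed an adjusted p-value of 0.05 in limma (Benjamini-Hochberg), 476 of them higher and 465 lower after injury.

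None of the 6 genes differed between injured and sham-operated tissue by this test. The count of 0 of 6 stands beside 7.43% of all genes (3.76% higher and 3.67% lower), and none of the 6 reached an unadjusted p-value under 0.05 by limma, as 3739 of the 12661 genes did. Adjusted p-values ran from 0.218 for *Nr3c1* to 0.994 for *Zbtb16*. The means of 3 genes were higher and those of 3 lower after injury, with a median difference of 0.07, against 0.01 over all genes. Both injury libraries lay below both sham libraries in 1 of the 6, *Nr3c1*, an arrangement seen in 30.3% of all genes. In none did both injury libraries lie above both sham libraries, which was so in 31.6% of all genes. In the other 5 the groups overlapped, whereas in 61.9% of all genes they did not. The smallest p-value that exact permutation of 2 and 2 libraries allows for 1 gene is 0.333.

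**Figure D1:**
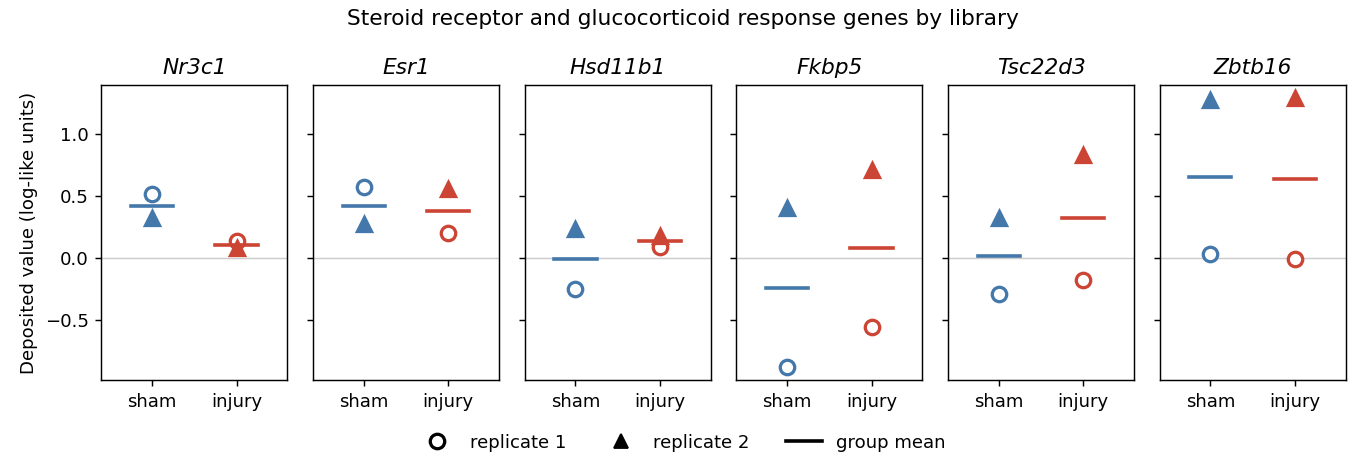
Deposited value (log-like units, vertical axis) of 6 genes in each sham (blue) and injury (red) library. Open circles are replicate 1, filled triangles replicate 2 and bars the group means. Both *Nr3c1* injury points lie below both sham points, while in *Fkbp5*, *Tsc22d3* and *Zbtb16* both triangles lie above both circles.

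Among the receptors, *Nr3c1* lies on chromosome 18 of mm9 from 39570199 to 39650955. Its values were 0.52 and 0.32 in sham replicates 1 and 2 and 0.14 and 0.08 in injury replicates 1 and 2. All 4 values were above 0, and the lower sham value exceeded the higher injury value. The mean was 0.42 ± 0.14 (SD, n = 2) after sham operation and 0.11 ± 0.04 (SD, n = 2) after injury. The difference of -0.31 (standard error 0.14, 95% interval -0.67 to 0.05) was not called (adjusted p = 0.218 from limma). Leaving out single libraries gave differences from -0.41 to -0.22. With groups that do not overlap, omitting 1 library cannot turn the sign.

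*Esr1*, the gene of estrogen receptor alpha, spans 394022 bases on chromosome 10 of mm9 from 5340927 to 5734948. Its sham values were 0.57 and 0.27 and its injury values 0.20 and 0.56. The highest value was that of sham replicate 1 and the lowest that of injury replicate 1, so the groups overlapped over nearly their whole range. The group means of 0.42 ± 0.21 (SD, n = 2) and 0.38 ± 0.25 (SD, n = 2) differed by -0.05. The 95% interval of this difference ran from -0.53 to 0.44 (adjusted p = 0.894 from limma). Its sign turned after quantile normalization of the 4 columns, where the difference was 0.02, and without sham replicate 1 or injury replicate 1.

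Other receptors were taken from a list of 8 names, of which 5 had rows. *Esrra*, an orphan receptor related to the estrogen receptors that binds no known steroid and drives mitochondrial genes, was at -0.35 and -0.06 in the sham libraries. In the injury libraries it was at 0.84 and 0.68, well above both. It was the only gene of this list that was called, with a difference of 0.97 (standard error 0.16, adjusted p = 0.0346 from limma), and the call was lost with a block for the replicate number (adjusted p = 0.0536 from limma). It was also lost without injury replicate 1 (adjusted p = 0.0838 from limma), and without sham replicate 1 (adjusted p = 0.209 from limma) or sham replicate 2 (adjusted p = 0.116 from limma). The last 2 settings left 0 and 1 called genes in the whole table. The brown adipocyte markers moved with *Esrra*, as 5 of 8 were called higher and their mean went from 0.75 and 1.21 in the sham libraries to 2.25 and 2.03 in the injury libraries. Their part in the difference of *Esrra* was not tested.

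*Gper1*, a membrane receptor that responds to estrogen, and the progesterone receptor membrane component genes *Pgrmc1* and *Pgrmc2* had differences of -0.11, -0.08 and -0.12, and none of them was called. The median difference of the 5 receptors was -0.11.

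Of the proteins that hold or assist steroid receptors, all 19 genes of the list had rows and 1 was called. This was *Nrip1*, a corepressor of nuclear receptors including the estrogen receptor, which also restrains oxidative genes in fat. It was at 0.86 and 0.75 after sham operation and at -0.50 and -0.16 after injury, with no overlap. It fell by 1.14 (standard error 0.17, adjusted p = 0.0303 from limma). The call was kept with the replicate block and lost without sham replicate 1, sham replicate 2 or injury replicate 1 (adjusted p = 0.19, 0.124 and 0.0587 from limma). Means after injury were also lower for 8 of 12 adipocyte, 8 of 8 endothelial and 7 of 7 smooth muscle markers. The same held for 9 of 10 fibroblast and progenitor, 5 of 5 skeletal muscle and 3 of 3 epithelial markers. The part of these cells in the fall of *Nrip1* was not tested. Chaperone genes of the glucocorticoid receptor did not pass. The difference was 0.47 for *Hsp90aa1*, where both injury libraries lay above both sham libraries, as in 31.6% of all genes. It was 0.22 for *Ptges3*, which encodes the co-chaperone p23, and 0.03 for *Fkbp4*, both with overlapping groups. *Fkbp4* encodes a co-chaperone that competes with the product of *Fkbp5* for the receptor complex. Of the 19 genes, 3 had an unadjusted p-value under 0.05 by limma (3739 of all 12661 genes). They were *Nrip1*, *Hsp90aa1* and *Bag1*, with a difference of 0.43 for *Bag1*. The list had 11 higher and 8 lower means, with a median difference of 0.03.

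*Hsd11b1* (mm9 chromosome 1, 195047824 to 195090248) was at -0.25 and 0.24 in the sham libraries and at 0.09 and 0.18 in the injury libraries. Both injury values lay between the sham values. The sham mean was -0.01 ± 0.35 (SD, n = 2) and the injury mean 0.13 ± 0.06 (SD, n = 2). The difference of 0.14 had a 95% interval from -0.36 to 0.64 (adjusted p = 0.681 from limma). The difference was -0.10 without sham replicate 1. *H6pd*, whose product supplies the cofactor for this enzyme, was at 0.01 and 0.34 after sham operation and at -0.16 and 0.36 after injury, a difference of -0.07.

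The list of other genes of steroid metabolism and transport had 26 names, of which 14 had rows, and none was called by limma, while 6 had an unadjusted p-value under 0.05 (3739 of all 12661 genes). The lowest p-values were those of *Abcb1a*, a membrane pump that exports glucocorticoids among many substrates, and of *Stard3*, a cholesterol transporter. *Abcb1a* was at 1.31 and 0.74 after sham operation and at -0.34 and 0.09 after injury, a difference of -1.15 (standard error 0.25, adjusted p = 0.0545 from limma). Under alternatives with all 4 libraries its adjusted p-value from limma ran from 0.0398 after quantile normalization to 0.0772 with the replicate block. Leaving out single libraries gave differences from -1.44 to -0.87. Endothelial cells carry this pump, and 8 of 8 endothelial marker genes had lower means after injury, 2 of them called, with list means of 0.63 and 0.69 in the sham and -0.22 and -0.16 in the injury libraries. Their part in the difference of *Abcb1a* was not tested. *Stard3* differed by 0.55 (adjusted p = 0.0948 from limma).

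*Fkbp5* encodes a co-chaperone that lowers the hormone affinity of the glucocorticoid receptor, so that its induction works as a negative feedback. The gene lies on chromosome 17 of mm9 from 28536040 to 28654469, on the minus strand. The palindromic response element, the letters AGAACA and TGTTCT with any 3 bases between them, reads the same on both strands and was searched without mismatch from 10000 bases before to 10000 bases after each gene in the NCBIM37 genome, the assembly of mm9. *Fkbp5* held 2 matches, both in introns, and the other 5 genes held none. They are shown on the strand of the gene, 5′ to 3′, with the element in capitals, because *Fkbp5* is the gene of the set with the widest spread between libraries. The lines give the stretches chr17:28579334-28579408 and chr17:28557236-28557310.
Fkbp5 element nearer the gene start: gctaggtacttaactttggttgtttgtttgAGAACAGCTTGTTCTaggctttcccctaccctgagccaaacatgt
Fkbp5 element farther from the gene start: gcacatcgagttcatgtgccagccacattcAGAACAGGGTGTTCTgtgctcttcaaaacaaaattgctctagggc
The genome holds 639 such matches on its chromosomes. Of the windows of the same length as the searched stretch around *Fkbp5*, 138430 bases, 3.25% held at least 1 and 0.0887% at least 2. Among 11579 genes of the table with a position, 190 (1.64%) held at least 1 and 6 (0.0518%) at least 2. A match is a description of the letters and no measurement of binding, and 5 of the 6 genes lack this exact form within the searched stretch.

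The values of *Fkbp5* were -0.88 and 0.40 in sham replicates 1 and 2 and -0.56 and 0.72 in injury replicates 1 and 2. Both libraries labelled replicate 2 were high and both labelled replicate 1 were low, so the groups overlapped. The group means were -0.24 ± 0.91 (SD, n = 2) and 0.08 ± 0.90 (SD, n = 2). The groups differed by 0.32 (standard error 0.56, 95% interval -1.09 to 1.72, adjusted p = 0.747 from limma). Within the same number, injury exceeded sham by 0.32 for replicate 1 and by 0.31 for replicate 2. The gap between the libraries of a group was 1.28 in both.

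*Zbtb16*, on chromosome 9 of mm9 from 48462416 to 48644050, encodes the zinc finger repressor PLZF. It was at 0.03 in sham replicate 1 and -0.01 in injury replicate 1, and at 1.27 in sham replicate 2 and 1.29 in injury replicate 2. The values of 1 number were thus nearly equal in both groups and those of the other number were higher by more than 1 unit. The group means of 0.65 ± 0.88 (SD, n = 2) and 0.64 ± 0.92 (SD, n = 2) differed by -0.01. The 95% interval of that difference ran from -1.41 to 1.39 (adjusted p = 0.994 from limma). The estrogen response element, GGTCA and TGACC with any 3 bases between them, also reads the same on both strands and had 1 match within 10000 bases of *Zbtb16*, outside the gene and before its start. Such a match was found near 7.09% of all positioned genes, and in 15.8% of genome windows as long as the stretch searched for *Zbtb16*. None was found around the other 5 genes, *Esr1* among them.

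*Tsc22d3*, on chromosome X of mm9 from 137074067 to 137135198, encodes the glucocorticoid-induced leucine zipper GILZ, which restrains inflammatory transcription factors. It was at -0.29 and 0.32 in sham replicates 1 and 2 and at -0.18 and 0.84 in injury replicates 1 and 2. The order of the libraries was that of *Fkbp5*, with both libraries labelled replicate 2 above both labelled replicate 1. The means were 0.02 ± 0.43 (SD, n = 2) after sham operation and 0.33 ± 0.72 (SD, n = 2) after injury. The difference was 0.31, with a 95% interval from -0.65 to 1.27 (adjusted p = 0.631 from limma). Without injury replicate 2 it was -0.20 and without injury replicate 1 it was 0.82.

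The gaps between libraries of 1 group were thus larger than the gaps between groups in all 3 response genes. This arrangement was noticed in the values and is given as a description without a test. Both replicate 2 libraries lay above both replicate 1 libraries in 4 of the 6 genes (*Fkbp5*, *Tsc22d3*, *Zbtb16* and, with an injury gap of only 0.09, *Hsd11b1*), and in 9.71% of all genes. Ranked by the smaller of their sham and injury gaps, where both had the same sign, *Fkbp5* was at rank 3 and *Zbtb16* at rank 4 of the 12661 genes. Only *Ifit1bl1* and *Serpina3m* were above them, and in *Ifit1bl1* it was replicate 1 that was higher. *Tsc22d3* was at rank 64. Taken gene by gene, 0.3% of genes had a larger sham gap and 0.908% a larger injury gap than *Fkbp5*, and 0.371% and 0.821% a larger one than *Zbtb16*. Over the whole table the libraries of the same number did not deviate together. The correlation of their deviations from the group means was -0.09 across genes, which are not independent replicates.

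**Figure D2:**
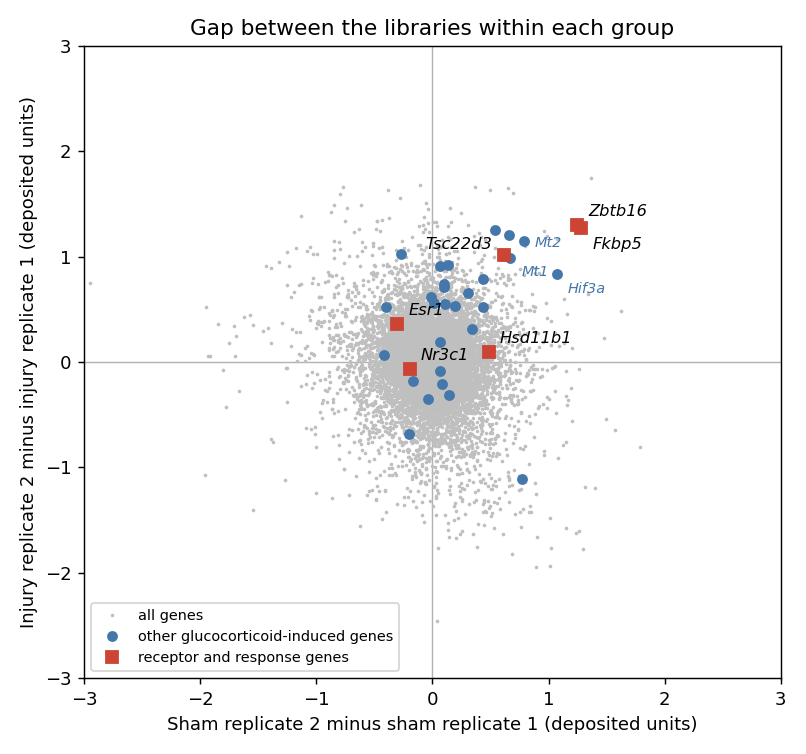
Value of replicate 2 minus value of replicate 1 in the sham group (horizontal axis) and in the injury group (vertical axis), in deposited units. Each grey point is a gene of the table, blue points are the 28 other glucocorticoid-induced genes, and red squares are the 6 receptor and response genes. *Fkbp5* and *Zbtb16* lie together at the upper right edge of the cloud, and 2 genes fall outside the plotted range.

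The genes whose 4 values were most like those of a given gene were sought by Euclidean distance after each gene's own mean was subtracted. For *Tsc22d3* the nearest of all genes was *Mt1*, a metallothionein gene that metals and glucocorticoids induce, at a distance of 0.06, followed by *Rwdd3* (0.16) and *Mybph* (0.17). For *Fkbp5* the nearest was *Zbtb16* (0.33), followed by *Hif3a* (0.38) and *Mt2* (0.41). For *Zbtb16* the nearest was *Fkbp5*, followed by *Mt2* (0.37) and *Hif3a* (0.39). Each of *Zbtb16*, *Hif3a*, *Mt1* and *Mt2* is in the lists of glucocorticoid-induced genes used here. The nearest genes of *Nr3c1* were *Morc2a* (0.02), *Sugp1* (0.02) and *Sympk* (0.02), and those of *Hsd11b1* were *Mcm5* (0.04), *Snupn* (0.05) and *Ccl25* (0.05). These distances rest on 4 libraries, and small ones are common for genes that vary little. The neighbours of *Fkbp5* and *Zbtb16* were looked up after their values were seen.

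The list of other glucocorticoid-induced genes had 29 names, of which 28 had rows. Between injury and sham, 2 of the 28 (7.14%) were called, both higher, against 7.43% of all genes. *Cdkn1a*, the cell cycle inhibitor p21, which many stresses other than glucocorticoids induce, was at -0.82 and -0.49 after sham operation and at 0.78 and 1.09 after injury. It rose by 1.59 (standard error 0.19, adjusted p = 0.0285 from limma). *Bcl6*, a transcriptional repressor active in lymphocytes and macrophages, went from -0.27 and -0.44 to 0.63 and 0.45. It rose by 0.90 (standard error 0.15, adjusted p = 0.0343 from limma). Both calls were lost without sham replicate 1 or sham replicate 2 (adjusted p = 0.176 and 0.113 for *Cdkn1a*, 0.18 and 0.154 for *Bcl6* from limma), and that of *Bcl6* also without injury replicate 1 (adjusted p = 0.0814 from limma). Macrophage markers moved with both genes, since each of the 10 lay higher after injury without overlap and 6 passed the test, with a mean of -1.11 and -1.12 in the sham and 0.44 and -0.17 in the injury libraries. The part of macrophages in the 2 rises was not tested. The other 26 genes did not pass, and the median difference of the list was 0.13.

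**Figure D3:**
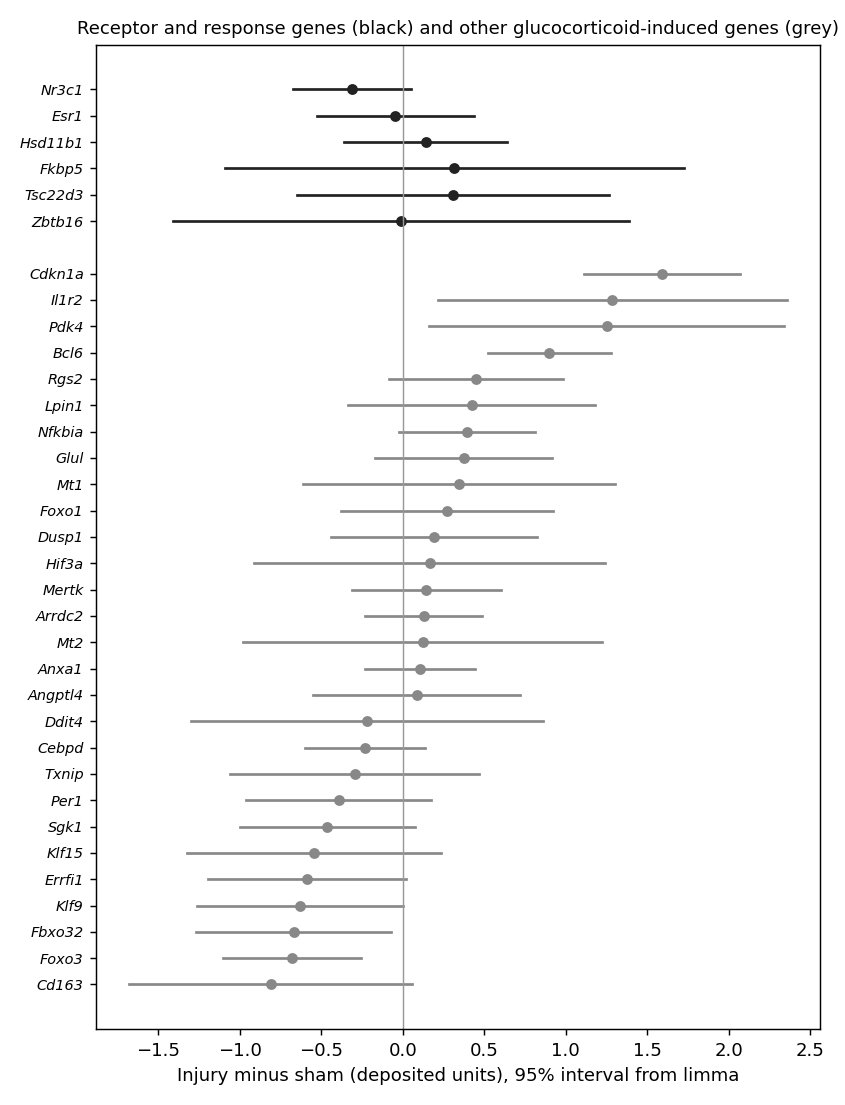
Injury minus sham (deposited units, horizontal axis) for the 6 receptor and response genes (black) and 28 other glucocorticoid-induced genes (grey). Points are differences and lines 95% intervals from limma. All 6 black intervals include 0, and those of *Fkbp5* and *Zbtb16* are the widest of the 6.

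Within this list, both replicate 2 libraries lay above both replicate 1 libraries in 8 of 28 genes (28.6%, against 9.71% of all genes). They were *Mt1*, *Mt2*, *Hif3a*, *Lpin1*, *Ddit4*, *Angptl4*, *Foxo1* and *Txnip*. The same arrangement was seen in 4 of 12 adipocyte markers (33.3%), 3 of 5 other receptors (60%) and 3 of 14 genes of steroid metabolism and transport (21.4%), so it was not particular to this list. It was seen in none of the 19 chaperone and coregulator genes and none of the 12 estrogen-responsive genes. The reverse, with both replicate 2 libraries below both replicate 1 libraries, was seen in 8 and 3 genes of these lists and in 1186 of all 12661 genes. The part of adipocytes in it was not tested. *Mt2*, another metallothionein gene, was at -0.51 and 0.28 after sham operation and at -0.57 and 0.58 after injury. *Hif3a*, a member of the hypoxia-inducible factor family, was at -0.93 and 0.14 after sham operation and at -0.64 and 0.19 after injury. In both genes the libraries labelled replicate 2 were higher whatever the group. *Lpin1*, an enzyme of triglyceride synthesis, was at 0.18 and 0.61 and then at 0.42 and 1.21. In *Txnip* and *Foxo1* the sham gap was small, 0.06 and 0.10, and the injury gap large, 0.91 and 0.74.

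The median gap of the list was 0.10 between the sham libraries and 0.55 between the injury libraries, against medians of -0.01 and 0.01 over all genes. In 12 of the 28 genes (42.9%) injury replicate 1 was the lowest of the 4 libraries, which was so in 30.8% of all genes. *Klf9*, a Krüppel-like factor induced by glucocorticoids in many tissues, was at 0.84 and 0.93 in the sham libraries. Its value was -0.10 in injury replicate 1 and 0.61, closer to the sham libraries, in injury replicate 2. *Klf15*, which controls amino acid and lipid metabolism, was at 0.68, 0.81, -0.26 and 0.66 in the same order of libraries. The clock gene *Per1* was at 0.41, 0.39, -0.30 and 0.31, and the kinase gene *Sgk1* at 0.52, 0.62, -0.17 and 0.38. In all 4 genes injury replicate 1 stood apart from the other 3 libraries. None of these passed with all libraries (adjusted p = 0.171 for *Klf9*, 0.306 for *Klf15*, 0.311 for *Per1* and 0.218 for *Sgk1* from limma).

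Without injury replicate 2, when the single remaining injury library is assumed to vary like the sham libraries, 8 of the 28 genes were called in place of 2. Lower then were *Cd163*, a scavenger receptor of tissue macrophages, *Klf15*, *Klf9*, *Txnip* and *Sgk1*, with differences of -1.32, -1.01, -0.99, -0.75 and -0.74. Higher were *Cdkn1a*, *Bcl6* and *Il1r2*, the decoy receptor of interleukin 1. The same setting raised the count over all genes from 941 to 1790. The adipocyte markers showed a like order of libraries, with means of 0.25 and 0.34 in the sham libraries, -0.30 in injury replicate 1 and 0.15 in injury replicate 2, and with 7 of 12 genes lower in both injury libraries. The injury libraries also differed in other lists, with means of 1.26 and 0.12 for neutrophil markers and -1.20 and -0.19 for smooth muscle markers in replicates 1 and 2. The part of these cells in the low values of injury replicate 1 was not tested.

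**Figure D4:**
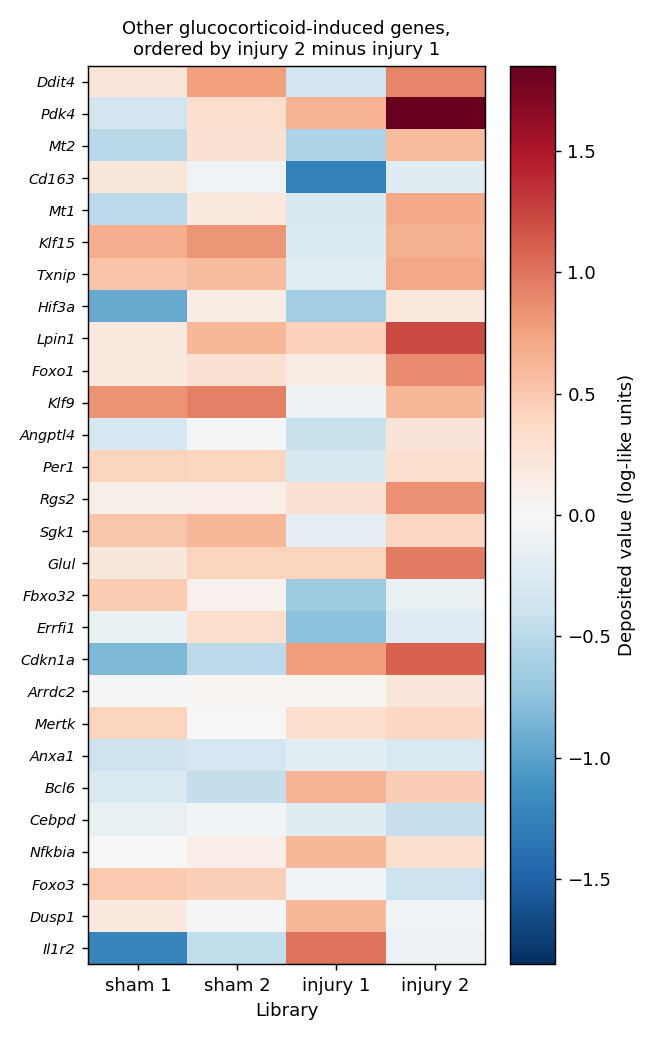
Deposited value (colour, log-like units) of 28 glucocorticoid-induced genes outside the set (rows) in the 4 libraries (columns), ordered by injury replicate 2 minus injury replicate 1. *Cdkn1a* and *Bcl6* are above 0 in both injury libraries only, *Mt2* and *Hif3a* are above 0 in both libraries labelled replicate 2 only, and *Klf9*, *Klf15*, *Per1* and *Sgk1* are below 0 in injury replicate 1 only.

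Genes that respond to estrogen were taken from a list of 18 names, of which 12 had rows. None was called by limma, and 3 had an unadjusted p-value under 0.05 (3739 of all 12661 genes). *Ctsd*, the lysosomal protease cathepsin D, was at -0.57 and -0.43 after sham operation and at 0.36 and 0.11 after injury, a difference of 0.74 (adjusted p = 0.0518 from limma). *Stc2*, a secreted glycoprotein, was at 0.20 and 0.22 and then at -0.32 and -0.70, a difference of -0.72 (adjusted p = 0.0664 from limma). These 2 genes went in opposite directions, and the list had 4 higher and 8 lower means with a median difference of -0.21. *Ctsd* passed without injury replicate 2 (adjusted p = 0.0338 from limma), after both rescalings of the columns' spread and with a trended variance prior, while *Stc2* passed 0.05 under none of the alternatives. Macrophages express much cathepsin D, and the part of the macrophage markers given above in its values was not tested.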

How the data were processed

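RNA of 4 libraries (480 ng each, stranded kit for polyadenylated RNA) was sequenced by the authors, trimmed with Cutadapt 1.18 and Trimmomatic 0.39, aligned to mm9 with STAR 2.6.0a and counted with featureCounts. The deposited values are signed scores, although they are named as counts. How they were derived, and the filter that left 12661 genes, are not given in the sources used here.

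Groups were compared with limma 3.58.1 in R 4.3.3 (group as the only term, no trend, 3.48 prior and 2 residual degrees of freedom), two-sided, adjusted by Benjamini-Hochberg over all genes, threshold 0.05. The scripts were tested on simulated data. P-values rest on the spread between these libraries, partly shared across genes by limma, and that spread may be technical.

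The genes, lists and tests were chosen with earlier results of these data known. Named beside the set were up to 3 called genes in each direction per list or, where none was called, the 2 with the lowest p. Added after their values were seen were genes chosen for their role beside a gene of the set, for a low unadjusted p or for an order of libraries. Nearest genes followed the same rule for the 3 genes of the set with the lowest p. Alternatives were a block for the replicate number, omission of single libraries, other scalings, variance priors and thresholds, and identical rows counted once. Gene positions are those of GENCODE on NCBIM37. Pandas 2.3.3, numpy 2.4.6 and matplotlib 3.10.9 were used. The values of 1 gene of the receptor list are not reported here.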

Additional observations from a re-analysis of the deposited data

How the results depend on the processing

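No gene of the set was called under any alternative. With each library left out in turn, differences ran from -0.22 to 0.13 for *Esr1*, from -0.41 to -0.22 for *Nr3c1*, from -0.32 to 0.96 for *Fkbp5*, from -0.20 to 0.82 for *Tsc22d3*, from -0.10 to 0.39 for *Hsd11b1* and from -0.66 to 0.64 for *Zbtb16*. With all 4 libraries only *Esr1* turned sign (0.02 after quantile normalization). The cause was not tested.

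The count of called genes was 941, and 2317 at an adjusted p-value of 0.1 and 591 with a minimum difference of 1 unit, which follows from the thresholds, and 0 to 1790 with a library left out. The alternatives that need read counts (TMM, size factors, a filter on low counts) were not run.

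Leaving out a library gave 0 to 1 calls among other receptors, 0 to 1 among chaperones and coregulators, 0 to 8 among other glucocorticoid-induced genes, 0 to 2 among estrogen-responsive genes and 0 to 2 in steroid metabolism. A minimum difference of 1 unit left 0 receptors and 1 glucocorticoid-induced gene. Among estrogen-responsive genes 1 was called after quantile normalization, 1 with columns scaled to one spread, 1 with a trended variance prior and 2 at a threshold of 0.1. In steroid metabolism 1 was called after quantile normalization, 1 with scaled columns and 2 at a threshold of 0.1.

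The labels do not say what libraries of the same number share, and their deviations correlated at -0.09 across genes. With the replicate block 684 genes were called, 0 of the set, 0 of the other receptors and 3 of the other glucocorticoid-induced genes, *Cdkn1a*, *Bcl6* and *Pdk4*, all higher. With 1 library per number in each group, the block cannot change a difference, and that of *Fkbp5* was again 0.32. Its standard error was 0.15 in place of 0.56 (adjusted p = 0.265 from limma).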
